A study of Mus musculus with 6 samples.

Results

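The genes described here encode the machinery by which the endoplasmic reticulum (ER) takes in, folds and discards proteins. They are 34 genes picked by symbol from the 24470 of the deposited count table, and each symbol matched 1 row. They comprise 9 chaperones and cochaperones, 2 lectin chaperones, 4 disulfide isomerases, 4 genes of the stress sensors, 2 phosphatase subunits that end the stress block on translation, 6 genes of ER-associated degradation (ERAD) and 7 of the translocon. RNA came from naive CD4+ T cells, purified with MACS beads from spleen and skin-draining LNs (lymph nodes) of male C57BL/6J mice. All cells were activated for 6 h by plate-bound anti-CD3 and anti-CD28 (coating concentration 1 µg/mL). In 3 samples recombinant mouse CCL19, a chemokine ligand of the receptor CCR7, was also present (treatment anti-CD3 and -CD28 + rCCL19), and in 3 samples labelled NoCKN it was not. The design sets activation with CCL19 against activation alone, and with no unstimulated group it says nothing of activation itself.

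As background, secreted and membrane proteins enter the ER through the Sec61 channel and are folded there by BiP, by the lectins calreticulin and calnexin, and by enzymes that form disulfide bonds. When unfolded proteins accumulate, the membrane sensors IRE1, PERK and ATF6 start the unfolded protein response, which raises the chaperones and the ERAD genes and slows translation. Lymphocytes that begin to secrete cytokines and to grow enlarge this machinery, and its fullest form is seen in plasma cells.

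With CCL19, DESeq2 called 8 of the 15 chaperone, lectin and isomerase genes higher, by 1.17-fold to 1.32-fold, and called no gene of the other roles. Hspa5, which encodes BiP, was 1.32-fold higher, Hsp90b1 (GRP94) 1.27-fold, Canx (calnexin) 1.26-fold and Calr (calreticulin) 1.23-fold. Of the chaperones that were not called, Sdf2l1 (1.02-fold), Dnajc3 (1.03-fold), Creld2 (1.06-fold) and Dnajb9 (1.09-fold) stood closest to 1. The 6 ERAD genes lay between 0.953-fold and 1.03-fold, and the difference between the roles was not tested. With the adjusted p threshold of 0.05, edgeR's quasi-likelihood test called 0 members in either direction, and it called 0% of the 11666 genes tested in the higher direction and 0% in the lower. At an unadjusted edgeR p under 0.05, 15 of 34 members were higher (44.1%, against 14.5% of tested genes) and 1 was lower (2.94%, against 13%). DESeq2, the other test run, called 8 of the 33 members it gave an adjusted p, all 8 of them higher, and none lower. That is 24.2%, against 6.55% of genes called higher and 5.6% called lower over all 9613 genes with a DESeq2 adjusted p (630 and 538 genes, or 707 and 314 with GC content and length as an offset). limma-voom called none. In bulk RNA, a larger share of strongly activated cells and more RNA per cell cannot be told apart.

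**Figure D1:**
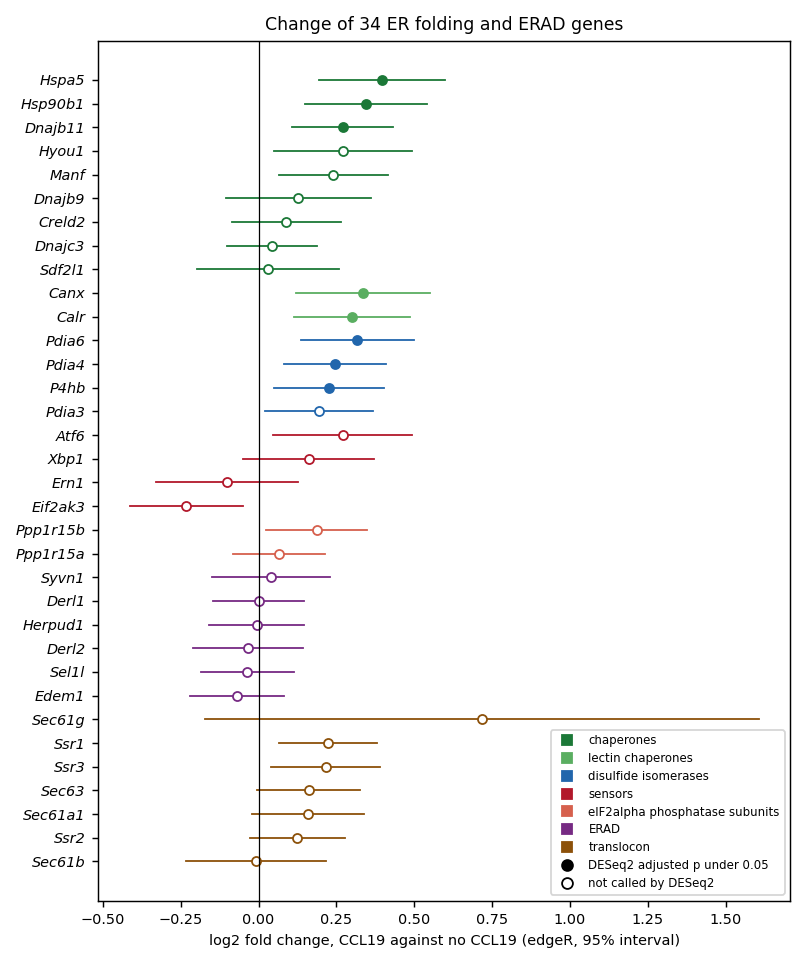
Log2 fold change with CCL19 (x axis) of each of the 34 genes (y axis), from the edgeR fit with its 95% interval as a line, coloured by role, filled where DESeq2 called the gene. The 8 filled points are all chaperones, lectins or isomerases between 0.23 and 0.40, and the 6 ERAD points lie around 0.

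All 34 members passed the filter on low counts. Their median log2 fold change was 0.16, beside a median of -0.00074 over all tested genes, and 27 of 34 lay above 0 (79.4%, against 49.8%). The groups did not overlap, with every CCL19 library above every other, for 14 members (41.2%, against 15.3% of tested genes). They were fully apart in the other direction for 1 member (2.94%, against 14.5%). By role, the median log2 fold change was 0.32 for the 2 lectins, 0.24 for the 9 chaperones, 0.24 for the 4 isomerases, 0.16 for the 7 translocon genes, 0.13 for the 2 phosphatase subunits, 0.03 for the 4 sensor genes and -0.02 for the 6 ERAD genes. These medians are descriptions with no test. Without the libraries numbered 1 of both groups they were 0.13 for chaperones, 0.19 for lectins, 0.14 for isomerases and 0.07 for the phosphatase subunits. The sensors' median was -0.03 without CCL19 replicate 1 and -0.06 without no-CCL19 replicate 1, so its sign rested on those libraries.

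Promoters of several members carry a sequence element that is rare among all genes. The rule that picked the members did not read promoters. It did pick them as ER genes, and the element is named for the ER stress response. The element's share among members is thus a description and no independent support. The ER stress response element (ERSE), bound by the factors NF-Y and ATF6, is read here as CCAAT, a gap of 9 bases, and CCACG. It was searched on both strands in windows from 250 bases before to 50 after the start, taken from RefSeq (GRCm38.p6). Windows were found for 27 members and not for Atf6, Derl1, Hyou1, Manf, Ppp1r15b, Sec61a1 and Ssr2. Of the 27, 8 held an exact ERSE (29.6%), beside 37 of 27025 genes in the whole table (0.137%) and 18 of 9322 tested genes (0.193%). CCAAT alone, which is part of the ERSE, was in a window of 81.5% of these members and of 41.1% of all genes. All elements are written in the CCAAT orientation, with CCAAT and CCACG in capitals and the gap in lower case.
Hspa5: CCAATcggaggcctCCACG
Hsp90b1, far: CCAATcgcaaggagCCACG
Hsp90b1, near: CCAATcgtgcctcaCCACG
Canx: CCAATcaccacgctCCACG
Calr: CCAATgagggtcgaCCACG
Pdia6: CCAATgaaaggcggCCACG
Creld2: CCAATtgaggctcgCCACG
Dnajc3: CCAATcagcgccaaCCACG
Syvn1: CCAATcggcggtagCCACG

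The elements lie upstream of the annotated starts. Counted from the base before the start as -1, that of Hspa5 spans -65 to -47 (chr2:34772025-34772043) and that of Pdia6 -98 to -80 (chr12:17266491-17266509). The pair of Hsp90b1 spans -212 to -194 (chr10:86705638-86705656) and -107 to -89 (chr10:86705533-86705551), on opposite strands. That of Canx spans -145 to -127 (chr11:50325800-50325818), that of Calr -162 to -144 (chr8:84847075-84847093) and that of Syvn1 -44 to -26 (chr19:6046532-6046550). A related form, ERSE-II (ATTGG, a gap of 1 base, CCACG), occurred in 2 members (7.41%, against 0.0444% of all genes), Herpud1 at -52 to -42 and Dnajb11 at 8 to 18. The core of the XBP1 site, TGACGTGG, was in no window of the 27 members and in 0.714% of all genes. The 250 bases upstream of the 2 chaperones with the largest fold changes are given in full, 5′ to 3′ along the gene, with exact ERSE matches in capitals. The second match of Hsp90b1 reads in reverse complement. They are chr2:34771840-34772089 on the plus strand and chr10:86705445-86705694 on the minus strand.
Hspa5: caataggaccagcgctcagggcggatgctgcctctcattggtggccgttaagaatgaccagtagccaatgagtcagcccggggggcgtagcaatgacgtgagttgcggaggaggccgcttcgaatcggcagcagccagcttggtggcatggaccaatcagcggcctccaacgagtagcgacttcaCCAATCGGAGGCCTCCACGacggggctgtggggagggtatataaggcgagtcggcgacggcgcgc
Hsp90b1: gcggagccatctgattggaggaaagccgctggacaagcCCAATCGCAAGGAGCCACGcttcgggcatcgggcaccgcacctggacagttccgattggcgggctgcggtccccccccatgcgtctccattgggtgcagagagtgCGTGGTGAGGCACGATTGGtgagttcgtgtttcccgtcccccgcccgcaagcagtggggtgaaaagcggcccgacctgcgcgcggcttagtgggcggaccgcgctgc

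The 8 members with an exact ERSE did not move alike. Hspa5, Hsp90b1, Canx, Calr and Pdia6 were called by DESeq2, with log2 fold changes from 0.30 to 0.40. Creld2 (0.09), Dnajc3 (0.04) and Syvn1 (0.04) carry the same 10 fixed letters and did not pass in either test. The median was 0.31 over the 8 with the element, 0.13 over the 19 without it and 0.19 over the 7 with no window. Of members with a window, 4 of 7 chaperones, 2 of 2 lectins, 1 of 4 isomerases and 1 of 5 ERAD genes had the element. It was in 0 of 5 translocon genes, 0 of 3 sensor genes and 0 of 1 phosphatase subunit. Element and role thus went together, and these medians cannot tell them apart. The 19 lack an exact ERSE but include Dnajb11 and Herpud1, which hold an ERSE-II. DESeq2 called 3 of the 19, namely Dnajb11, Pdia4 and P4hb. A match is a description of the letters in a window and not evidence that a factor binds there.

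**Figure D2:**
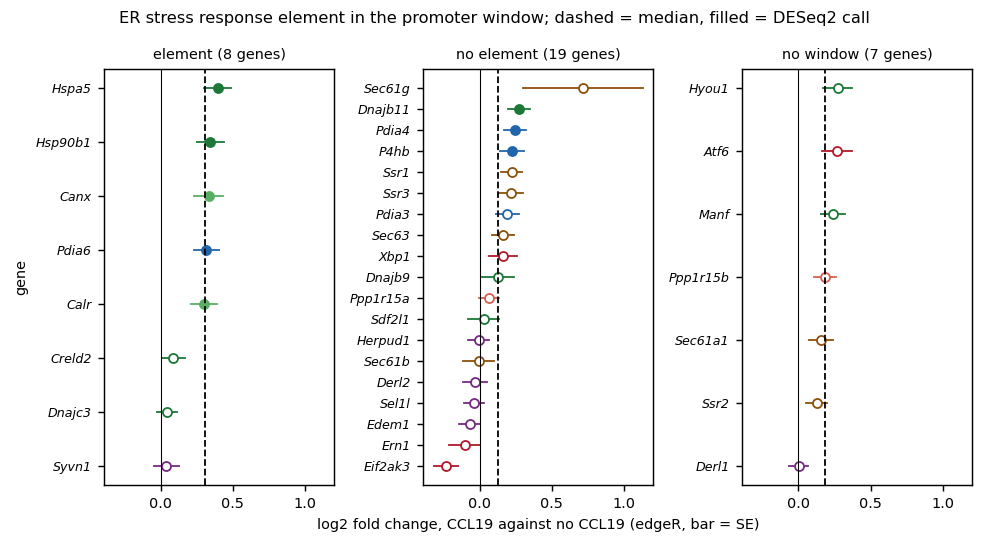
Log2 fold change with CCL19 (x axis; point and SE from edgeR) for members (y axis) with an exact ERSE in the promoter window, without one, and with no window in the table. The dashed lines mark the medians of 0.31, 0.13 and 0.19. Syvn1, Dnajc3 and Creld2 lie near 0 among the genes that have the element.

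Among the chaperones, Hspa5 encodes BiP, the HSP70 of the ER lumen that holds unfolded chains and keeps the stress sensors silent. Its gene lies at chr2:34772090-34776529 (mm10, NCBI Gene 14828). Its transcript stood at 1113, 1042 and 970.3 CPM (counts scaled to library size, with TMM factors) in the CCL19 libraries and at 695.5, 822.4 and 856.7 CPM in the others. All CCL19 libraries were higher, and the gap between the groups was smaller than the range within the no-CCL19 group. The log2 fold change was 0.40 ± 0.09 (SE; DESeq2 adjusted p = 0.00263, edgeR adjusted p = 0.0505).

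Hsp90b1 encodes GRP94, the HSP90 of the ER, which folds integrins and Toll-like receptors. It stood at 614.6, 571.3 and 532.5 CPM with CCL19 and at 413.4, 439.2 and 500.8 CPM without it. The groups were apart, with the lowest CCL19 library close to the highest of the others. The log2 fold change was 0.34 ± 0.09 (DESeq2 adjusted p = 0.00689, edgeR adjusted p = 0.0542). Dnajb11 (ERdj3), a cochaperone that delivers clients to BiP, stood at 181, 177.9 and 171 CPM against 134.2, 149 and 156.1 CPM, again without overlap. Its log2 fold change was 0.27 ± 0.08 (DESeq2 adjusted p = 0.0206, edgeR adjusted p = 0.0591).

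The other chaperone genes did not pass in DESeq2 or edgeR. Hyou1 (GRP170), the nucleotide exchange factor of BiP, had 356 ± 46.3 CPM with CCL19 and 295 ± 29.3 CPM without (mean ± SD, n = 3), a log2 fold change of 0.27 with groups that overlapped. Manf, a secreted ER protein that binds BiP, had 98.3 ± 3.93 against 83.2 ± 8.21 CPM and groups that did not overlap. Dnajb9 (ERdj4), a BiP cochaperone that IRE1 and XBP1 raise strongly under ER stress, had 20.0 ± 2.63 against 18.4 ± 0.327 CPM. Sdf2l1, a partner of ERdj3 that is also a strong stress target, had 31 ± 2.22 against 30.3 ± 4.29 CPM, and Creld2 had 55.6 ± 3.72 against 52.2 ± 2.93 CPM. For Dnajb9, Sdf2l1 and Creld2 the libraries overlapped between the groups. Dnajc3 (p58IPK), an ER cochaperone, had 120 ± 1.73 against 116 ± 2.57 CPM. Its groups were apart, by a difference of 1.03-fold with a 95% interval from 0.933 to 1.14.

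The lectin chaperones hold newly made glycoproteins until their sugars are trimmed. Calr stood at 806.4, 781.2 and 682.9 CPM with CCL19 and at 581, 628.1 and 633.7 CPM without it. The log2 fold change was 0.30 ± 0.09 (DESeq2 adjusted p = 0.0101, edgeR adjusted p = 0.0612). Canx stood at 476.7, 434.6 and 400.6 CPM against 302.3, 345.9 and 392 CPM, which is 0.34 ± 0.10 on the log2 scale (DESeq2 adjusted p = 0.0183, edgeR adjusted p = 0.0678). Neither gene's groups overlapped, although for Canx the nearest libraries of the groups, CCL19 replicate 3 and no-CCL19 replicate 3, differed by less than the SD of each group.

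Of the disulfide isomerases, which form and rearrange the bonds between cysteines, Pdia6 stood at 300.4, 282.9 and 263 CPM with CCL19 and at 206.4, 242.8 and 229.7 CPM without it. The log2 fold change was 0.32 ± 0.08 (DESeq2 adjusted p = 0.00978, edgeR adjusted p = 0.0542). P4hb, the classical PDI, stood at 401.4, 366.1 and 348.3 CPM against 301, 328.5 and 324.2 CPM. All 3 CCL19 libraries of each were above the others. For P4hb the log2 fold change was 0.23 ± 0.08 (DESeq2 adjusted p = 0.0472, edgeR adjusted p = 0.102). Pdia4 (ERp72) stood at 95.01, 84.82 and 83.96 CPM against 70.48, 75.1 and 76.7 CPM (log2 fold change 0.25 ± 0.08, DESeq2 adjusted p = 0.0496, edgeR adjusted p = 0.0722). The calls of P4hb and Pdia4 lay just under the DESeq2 threshold. Pdia3 (ERp57), the isomerase that works with both lectins and in the loading of MHC class I, stood at 442.4, 418.1 and 412.2 CPM against 351.1, 362.3 and 400.3 CPM. Its groups were apart too, and it did not pass (log2 fold change 0.19 ± 0.08, DESeq2 adjusted p = 0.0821, edgeR adjusted p = 0.143).

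**Figure D3:**
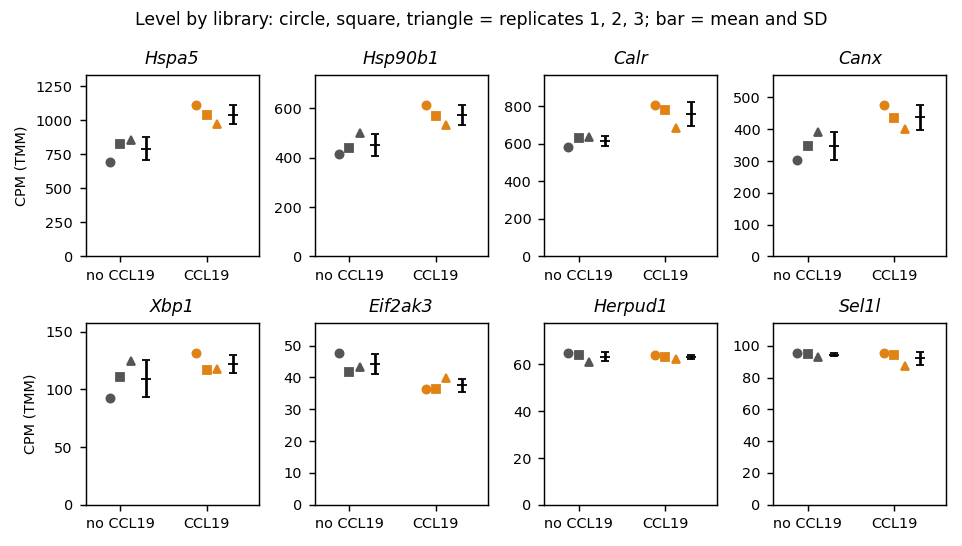
CPM scaled by TMM (y axis, from 0) of 8 members in the no-CCL19 and CCL19 libraries (x axis), with the mean and SD (n = 3) beside the points. The 4 chaperones of the upper row are apart between the groups, Eif2ak3 is apart in the other direction, and Xbp1, Herpud1 and Sel1l overlap.

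The sensor genes did not share a direction, and none passed in DESeq2 or edgeR. Atf6, the sensor that is cleaved into a transcription factor, stood at 35.68, 31.39 and 28.28 CPM with CCL19 and at 24.22, 25.96 and 28.88 CPM without. Its log2 fold change was 0.27 ± 0.10 (DESeq2 adjusted p = 0.116, edgeR adjusted p = 0.118), and 1 no-CCL19 library lay above the lowest CCL19 library. Xbp1, the factor whose mRNA IRE1 splices, stood at 131.4, 117.2 and 117.5 CPM against 92.42, 110.5 and 124.6 CPM, with overlap (log2 fold change 0.16 ± 0.10, DESeq2 adjusted p = 0.324, edgeR adjusted p = 0.306). Counts per gene do not separate spliced from unspliced Xbp1. Ern1, which encodes IRE1, stood at 20.28, 18.77 and 17.76 CPM against 17.9, 21.48 and 21.55 CPM, also with overlap (log2 fold change -0.10 ± 0.11, DESeq2 adjusted p = 0.631, edgeR adjusted p = 0.561).

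Eif2ak3 encodes PERK, the kinase that phosphorylates eIF2α, and was the 1 member whose CCL19 libraries all lay below the others. It stood at 36.4, 36.42 and 39.87 CPM with CCL19 and at 47.62, 41.57 and 43.15 CPM without it. The log2 fold change was -0.23 ± 0.09 (edgeR adjusted p = 0.106, DESeq2 adjusted p = 0.105), and this is the 1 member counted above as lower at an unadjusted p under 0.05. On the other side of this step, Ppp1r15b, the constitutive subunit that directs a phosphatase to eIF2α, stood at 238.8, 216.2 and 214.2 CPM against 185, 202 and 201 CPM, without overlap. It did not pass either (log2 fold change 0.19 ± 0.08, DESeq2 adjusted p = 0.104, edgeR adjusted p = 0.133). Ppp1r15a (GADD34), the stress-induced subunit, had 96.9 ± 2.61 against 92.6 ± 2.44 CPM, with overlap.

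The ERAD genes, which pull misfolded proteins back to the cytosol for the proteasome, had the narrowest range of any role with more than 2 genes. Syvn1, the ubiquitin ligase HRD1, stood at 159.9, 144.3 and 129 CPM with CCL19 and at 130.3, 152.6 and 138 CPM without it, with full overlap of the ranges. Sel1l, the partner that holds HRD1 in its complex, had 92.3 ± 4.19 against 94.6 ± 1.18 CPM. Herpud1, a scaffold of that complex that ER stress induces, had 63.1 ± 0.772 against 63.4 ± 1.95 CPM. The derlins, which form part of the exit channel, had 91.5 ± 2.05 against 91.5 ± 1.78 CPM (Derl1) and 47.7 ± 3.59 against 48.9 ± 2.27 CPM (Derl2). Edem1, which marks glycoproteins for disposal, had 188 ± 6.83 against 197 ± 7.20 CPM. None was called by either test, and none had groups apart. Over all genes DESeq2 called 6.55% higher and 5.6% lower, and groups were apart for 15.3% and 14.5%. With 6 genes, counts of 0 cannot be told from these shares. Over the 6 genes the 95% intervals of the fold change ran from 0.858 at the lowest to 1.173 at the highest, that of Syvn1. Changes of the size seen for Hspa5 lay outside them. The smallest change of a called member, 1.170-fold for P4hb, lay inside the interval of Syvn1. Derl2 shares 231 bp with Mis12 and Syvn1 shares 89 bp with Mrpl49, each on the opposite strand, and without a stated strand setting reads from such pairs cannot be told apart.

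In the translocon, Sec61a1, the channel subunit, stood at 369.1, 343.3 and 322.1 CPM with CCL19 and at 295.9, 334.2 and 296.7 CPM without it, with overlap (log2 fold change 0.16 ± 0.08, DESeq2 adjusted p = 0.192, edgeR adjusted p = 0.239). Ssr1, a subunit of the TRAP complex that assists the channel, was nearest to a call, with 150 ± 7.17 against 128.0 ± 7 CPM, groups apart and a DESeq2 adjusted p of 0.053. Ssr2, of the same complex, had groups apart at 101 ± 2.16 against 92.3 ± 4.66 CPM, and Ssr3 had overlapping groups at 127 ± 7.59 against 110 ± 9.96 CPM. Sec63, which recruits BiP to the channel, had 124 ± 4.03 against 111 ± 9.24 CPM, and the small subunit gene Sec61b had 37.2 ± 3.36 against 37.3 ± 5.03 CPM. Both overlapped. Sec61g, the other small subunit, had 8, 20 and 21 counts with CCL19 and 10, 15 and 7 without, so its log2 fold change of 0.72 ± 0.42, the highest of the members, rests on few reads and its groups overlapped. How reads that map to several places were counted is not stated, so the level of Sec61g is uncertain. Every other member had at least 316 counts in each library.

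**Figure D4:**
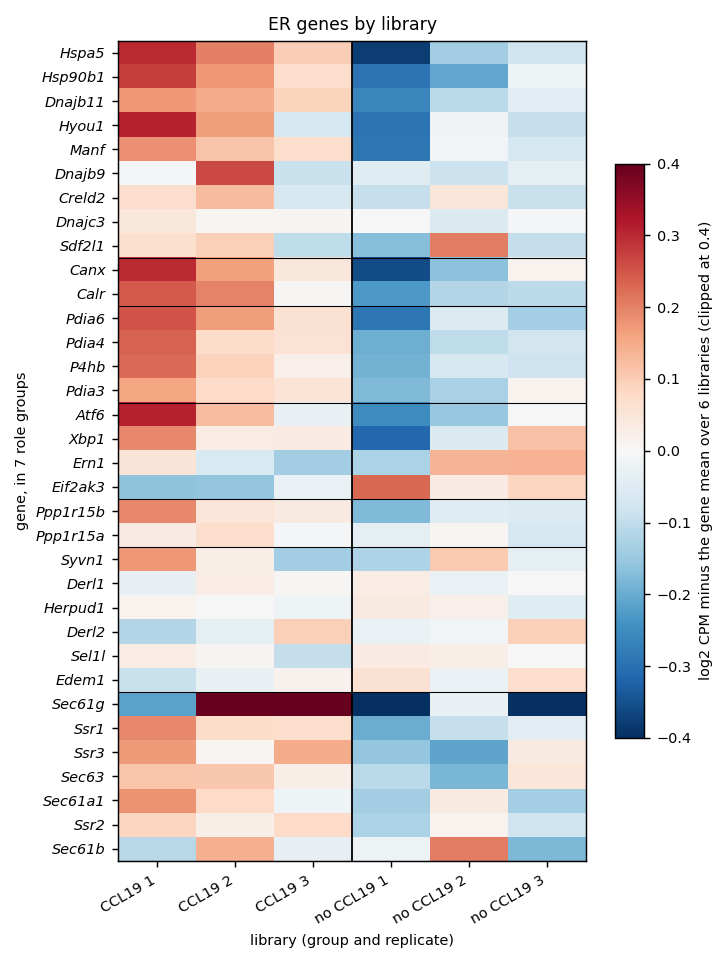
Each cell gives the log2 CPM of 1 member (y axis, in role groups) in 1 library (x axis), minus the mean of that gene over the 6 libraries, as colour from -0.4 (blue) to 0.4 (red), with values beyond that clipped. CCL19 replicate 1 is the darkest red and no-CCL19 replicate 1 the darkest blue for most chaperones, lectins and isomerases, and the ERAD genes other than Syvn1 are pale.

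The libraries differed within each group along the same genes. CCL19 replicate 1 was the highest library for 21 of 34 members and no-CCL19 replicate 1 the lowest for 19. For all 8 members that DESeq2 called, CCL19 replicate 1 was the highest, CCL19 replicate 3 the lowest of its group and no-CCL19 replicate 1 the lowest of all. The 34 genes together took 0.712%, 0.679% and 0.649% of all counts in the CCL19 libraries and 0.554%, 0.598% and 0.619% in the others. The sum for the ERAD genes was 0.062%, 0.0622% and 0.0618% against 0.0641%, 0.0639% and 0.0645%. Scaled with TMM factors, as all CPM here, the ERAD genes summed to 633.4, 630.2 and 616.3 CPM with CCL19 and to 631.4, 637.9 and 637 CPM without. The sum over all members was apart between the groups on both scales, whereas that of ERAD was apart as a share of counts and overlapped as TMM-scaled CPM.

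The DESeq2 calls depended on single libraries. Without CCL19 replicate 1, DESeq2 called 0 members (edgeR 0), and without no-CCL19 replicate 1 or without CCL19 replicate 2 it called 1 each time, Hspa5. DESeq2 calls over the whole table fell in these refits too, from 630 genes higher and 538 lower. They were 20 and 35 without CCL19 replicate 1, 60 and 45 without no-CCL19 replicate 1, and 56 and 67 without CCL19 replicate 2. With both libraries numbered 1 left out, an alternative chosen after seeing the data, DESeq2 called none of the members, and the log2 fold change was 0.26 for Hspa5 and 0.21 for Calr. Without CCL19 replicate 3, DESeq2 called 10 members and edgeR 9, and Atf6 and Hyou1 were among both. Calls rose over the whole table in that refit, to 905 genes higher and 799 lower in DESeq2 and to 772 and 827 in edgeR. Without no-CCL19 replicate 2 or without no-CCL19 replicate 3, DESeq2 called 8 members each time, 6 of them called with all libraries. Pdia4 and P4hb dropped out of both. Over the whole table these refits gave DESeq2 604 genes higher and 406 lower, and 709 and 549. Whether the difference between the libraries within a group is technical was not tested.

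**Figure D5:**
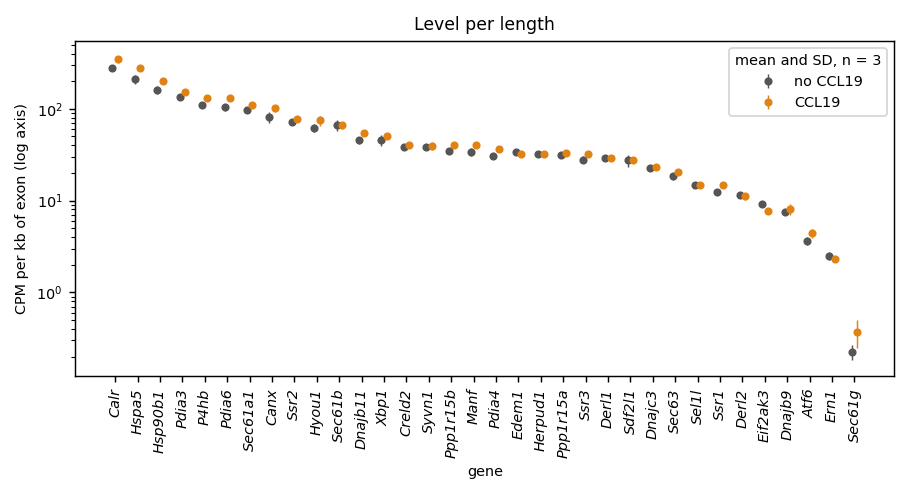
CPM per kb of exon (y axis, log scale) of each member (x axis, ordered by mean), as mean and SD of 3 libraries per group. Calr, Hspa5 and Hsp90b1 lead in both groups, and the sensor genes Eif2ak3, Atf6 and Ern1 lie near the foot of the order.

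Levels of different genes were compared as CPM per kb of exon. Calr led with 346 ± 29.9 with CCL19 and 281 ± 13.2 without it, followed by Hspa5 (278 ± 19.0 and 211 ± 22.6), Hsp90b1 (203 ± 14.5 and 160 ± 15.9) and Pdia3 (153 ± 5.78 and 134 ± 9.30). P4hb (111 ± 5.16 without CCL19), Pdia6 (104 ± 8.48) and Sec61a1 (97.4 ± 6.90) followed, and these neighbours did not differ beyond their SD without CCL19. With CCL19, Pdia6 (129.7 ± 8.61) lay above Sec61a1 (109 ± 7.42) by more than either SD. At the foot, the sensors Eif2ak3, Atf6 and Ern1 had 9.11 ± 0.648, 3.64 ± 0.325 and 2.49 ± 0.256 without CCL19, and the uncertain Sec61g had 0.226 ± 0.0444. Of the 8 members called by DESeq2, 6 were among the 10 highest per length. Those 8 held 54.2% of all member counts with CCL19 and 50.7% without it, and Hspa5 alone held 15.2% and 13.5%.

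Other genes of the ER, in 6 lists chosen from general knowledge, were read from the same fit. edgeR called none of their 132 tested genes. At an unadjusted edgeR p under 0.05, 30 were higher (22.7%, against 14.5% of tested genes) and 10 lower (7.58%, against 13%). DESeq2 called 7 of the 123 with an adjusted p higher (5.69%) and 1 lower. The shares over all genes were 6.55% and 5.6%, so the higher calls of the 6 lists together were no more frequent than over all genes. The list of N-glycosylation, the addition of sugar trees to new proteins, had a median log2 fold change of 0.13 over 27 genes. DESeq2 called 5 of the 24 with an adjusted p higher (20.8%) and 0 lower. edgeR had 11 higher (40.7%) and 2 lower (7.41%) at an unadjusted p under 0.05. The called gene with the smallest edgeR p was Alg11, a mannosyltransferase of the sugar precursor, at 38.1 ± 1.08 against 29.6 ± 1.27 CPM (log2 fold change 0.36 ± 0.08, DESeq2 adjusted p = 0.0102, edgeR adjusted p = 0.0505). Alg8, a glucosyltransferase of the same pathway and the next by that p, stood at 34.4 ± 5.10 against 24.1 ± 3.44 CPM (0.51 ± 0.12, DESeq2 adjusted p = 0.00798, edgeR adjusted p = 0.0505).

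Other disulfide and folding enzymes had a median of 0.07 over 25 tested genes. DESeq2 called 1 of the 22 with an adjusted p higher (4.55%, against 6.55% of all genes). This was Dnajc1 (ERdj1), a J protein that binds the ribosome, at 86 ± 8.79 against 71.4 ± 2.77 CPM (0.27 ± 0.08, DESeq2 adjusted p = 0.0469, edgeR adjusted p = 0.0722). The calnexin cycle list had a median of 0.06 over 13 genes and no DESeq2 call (edgeR unadjusted: 1 higher, 7.69%, and 0 lower). Other ERAD genes had a median of -0.0034 over 29 genes and no DESeq2 call (edgeR unadjusted: 1 higher, 3.45%, and 5 lower, 17.2%). Other genes of targeting and translocation had a median of 0.05 over 20 tested genes and no DESeq2 call. By unadjusted edgeR p, 6 of them were higher (30%) and 1 lower (5%). Over all tested genes these unadjusted shares were 14.5% higher and 13% lower. Other stress signalling genes had a median of 0.08 over 18 genes, with 1 DESeq2 call in each direction (5.56% higher). Eif2s1, the eIF2α subunit that PERK phosphorylates, was higher at 174 ± 9.48 against 138 ± 16.2 CPM (0.34 ± 0.09, DESeq2 adjusted p = 0.0132, edgeR adjusted p = 0.0536). Bbc3, the proapoptotic gene of PUMA, was lower at 32 ± 1.94 against 45.4 ± 6.46 CPM (-0.51 ± 0.10, DESeq2 adjusted p = 0.00256, edgeR adjusted p = 0.0505).

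The libraries held 16978736 to 27429898 counts. All 9 markers of CD4 T cells were present, at a sum of 4040 to 4406 CPM with CCL19 and 4285 to 4628 without. Plasma cells are rich in ER chaperones. Of 6 plasma cell markers 5 had counts, with a sum of 117 to 135 CPM with CCL19 and 116 to 120 without. Most of that sum was Txndc5, itself an ER isomerase (103 to 124 CPM). Prdm1 was next at 6.35 to 8.56 CPM, then Jchain at 1.53 to 2.87 CPM. Mzb1 was at 0.30 to 1.39 CPM, Sdc1 at 0.51 to 1.02 CPM and Tnfrsf17 at 0. B cell markers (7 of 7 with counts) summed to 17.5 to 22.9 CPM against 22.4 to 24.6, and myeloid markers (7 of 7) to 44.4 to 48.6 against 47.3 to 56.6. Most of the myeloid sum was Cst3 (29.4 to 37.0 CPM over all libraries). CD8, NK, dendritic and erythroid lists each summed to at most 17.2 CPM in any library. The stromal list (3 of 4 with counts) summed to 190 to 243 CPM against 232 to 277, nearly all of it Pecam1, which T cells also express, with Pdpn at 0. For the CD4 T cell, myeloid and stromal lists, CCL19 replicate 1 had the lowest sum and no-CCL19 replicate 1 the highest. For the plasma cell list it was the reverse. The other lists did not have both of these libraries at their opposite ends in this way. The part of other cell types in the differences was not tested. Log2 fold change fell with GC content over 11600 tested genes (rho -0.32, Spearman, across genes, which are not independent). The members' median GC content was 49.1%, beside 50.2% over tested genes, and 27 of 34 members lay above the median log2 fold change of their own class when the tested genes were cut into 10 classes by GC. With GC content and length as an offset, DESeq2 called 8 members, 7 of them the same. That offset was fitted over all genes, those without counts included. With the offset fitted over the 11666 tested genes, edgeR called 0 members. The lowest edgeR adjusted p of any gene was then 0.0991.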

How the data were processed

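Messenger RNA levels were read from raw counts per gene that the authors deposited for the 6 libraries, aligned with STAR 2.5 to mm10 and counted with featureCounts 1.5.0-p1, per the submitters' processing notes. Strand, multiply mapped reads and annotation: not given in the sources used here. A further list that the authors deposited names changed genes with a direction and no other value (630 higher, 538 lower). It held 8 members, all higher, and the DESeq2 run here called the same 1168 genes, so that list is no second line of evidence.

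Groups came from the sample titles. No label states that replicates are separate animals or cultures, so the p-values reflect the spread among these samples, which may be technical. All genes were fitted with edgeR 4.0.16 (filterByExpr, TMM, quasi-likelihood F test) in R 4.3.3. DESeq2 1.42.0 (independent filtering at 0.1) and limma 3.58.1 (voom) were alternatives. Adjusted p-values are Benjamini-Hochberg over all genes, at a threshold of 0.05. The fits were tested on simulated data. Exon length and GC content came from GENCODE M21. Members and lists were chosen with earlier results of these data known. By the rule for named genes, every member is named, libraries are listed for DESeq2 calls, sensors and the highest gene per role, and at most 2 called genes per list and direction are named. Retention signals were not analysed here.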

Additional observations from a re-analysis of the deposited data

How the results depend on the processing

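The members' median log2 fold change, 0.16 in the main fit, kept its sign and moved by less than the replicate SD under every alternative run. It ranged from 0.09 without the libraries numbered 1 of both groups to 0.21 without no-CCL19 replicate 3. That SD was taken over all libraries, so it includes the spread of those numbered 1. Without both of them, the medians of chaperones, lectins, isomerases and phosphatase subunits moved by more than their own SD. Counts of calls did not hold. edgeR, with 0 genes in either direction, called 803 higher and 797 lower without the low-count filter and 267 and 262 with a robust prior, where DESeq2 called 630 and 538. Of the members these were 8, 3 and 8, all higher. Leaving out 1 library gave edgeR 0 to 772 genes higher, 0 to 827 lower and 0 to 9 members, with calls without CCL19 replicate 3 (9 members) and without no-CCL19 replicate 3 (3 members). The same refits gave DESeq2 20 to 905 higher, 35 to 799 lower and 0 to 10 members, the lowest without CCL19 replicate 1. Without the libraries numbered 1 of both groups DESeq2 called 0 genes higher and 1 lower, and no member. GC content and length as an offset gave DESeq2 707 higher and 314 lower genes, and edgeR none. Whether replicate numbers pair samples is not stated. Deviations from the group means of same-numbered libraries correlated at -0.16, 0.08 and -0.02. CCL19 replicate 1 correlated best with no-CCL19 replicate 2, and CCL19 replicate 3 with no-CCL19 replicate 1 (0.22). With 3 libraries per group these values cannot settle whether samples are paired. With the replicate block DESeq2 called 103 genes higher and 75 lower and 1 member, Hspa5, and edgeR none. Fewer samples alone can lower such counts, and the cause was not tested. Sec61g, with at most 21 counts, allows no precise fold change.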

Other observations

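Outside the members, 10 tested genes had an exact ERSE in the promoter window, among them the ER genes Alg12, Derl3 and Ero1b, which were named after their values were seen. Their median log2 fold change was -0.04, with 4 of 10 above 0, beside 0.31 and 8 of 8 for the members with the element. Alg12 stood at -0.06, Derl3 at -0.20 ± 0.39 and Ero1b at -0.02. DESeq2 gave 5 of the 10 an adjusted p and called 1, Hnrnpa3 (0.27, DESeq2 adjusted p = 0.0368, edgeR adjusted p = 0.0875). These values are a description with no test.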
